A study of Mus musculus with 2 samples.

Results

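The 7 genes Arg1, Nos2, Ass1, Slc7a2, Odc1, Chil3 and Retnla handle arginine in macrophages or mark their alternative activation. They were taken by symbol from the 56941 genes of 2 single-cell count tables, 1 per library, and each symbol named 1 gene. Their Ensembl identifiers are ENSMUSG00000019987 (Arg1), ENSMUSG00000020826 (Nos2), ENSMUSG00000076441 (Ass1), ENSMUSG00000031596 (Slc7a2), ENSMUSG00000011179 (Odc1), ENSMUSG00000040809 (Chil3) and ENSMUSG00000061100 (Retnla). Each library held cells of a subcutaneous tumour from 1 C57BL/6 mouse, grown from MC38 cells, a mouse line labelled as colon adenocarcinoma of genotype WT. The cells were a stable pool made by lentivirus, carrying either SPP1 or the vector. SPP1 encodes osteopontin, a secreted phosphoprotein. All mice were given anti-PD1, which blocks a checkpoint receptor on T cells. The dose was 10 mg/kg, given 2 times per week over 2 weeks and begun on day 7 after injection. With 1 tumour per group no test across animals was possible, and label, animal and tumour cannot be told apart.

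Arginine enters cells through cationic amino acid carriers such as Slc7a2, and Ass1 with Asl rebuilds it from citrulline. Arg1 splits it into ornithine and urea, while Nos2 oxidises it to nitric oxide and citrulline, so that both enzymes draw on the same substrate. Odc1 turns ornithine into putrescine, the first polyamine. Chil3 (also called Ym1) and Retnla (also called Fizz1) encode secreted proteins that interleukin 4 and interleukin 13 induce in mouse macrophages through the transcription factor STAT6. Arg1 and Nos2 are the textbook pair of alternative and classical activation in cultured mouse macrophages, and Arg1 is well known in macrophages of mouse tumours.

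Of the 7 genes, 4 had an entry in the RefSeq promoter table (build GRCm38.p6), from which the 250 bases before the annotated start are used here. They are shown, 5′ to 3′ on the gene's strand, for Chil3 and Retnla, whose UMIs lay in very few cells, and for Odc1, which was found in every class. Chil3 lies at chr3:106167565-106167814 on the minus strand, Retnla at chr16:48842359-48842608 on the plus strand and Odc1 at chr12:17544623-17544872 on the plus strand. Capitals mark letters that match 1 of 5 motifs searched on both strands.
Chil3: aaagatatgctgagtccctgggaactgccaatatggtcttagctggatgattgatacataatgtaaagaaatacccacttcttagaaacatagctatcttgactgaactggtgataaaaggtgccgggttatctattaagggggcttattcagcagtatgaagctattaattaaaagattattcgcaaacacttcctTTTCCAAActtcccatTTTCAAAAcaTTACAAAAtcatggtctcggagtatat
Retnla: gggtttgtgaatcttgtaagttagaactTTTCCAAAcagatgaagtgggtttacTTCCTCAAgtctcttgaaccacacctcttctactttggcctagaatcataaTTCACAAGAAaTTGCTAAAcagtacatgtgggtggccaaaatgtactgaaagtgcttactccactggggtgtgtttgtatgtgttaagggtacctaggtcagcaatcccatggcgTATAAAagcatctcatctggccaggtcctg
Odc1: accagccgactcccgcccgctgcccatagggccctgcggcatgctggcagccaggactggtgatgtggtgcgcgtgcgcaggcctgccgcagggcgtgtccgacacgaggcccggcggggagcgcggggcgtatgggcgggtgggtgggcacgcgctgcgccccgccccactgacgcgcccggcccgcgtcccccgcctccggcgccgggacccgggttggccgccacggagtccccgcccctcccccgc
Retnla held the STAT6 palindrome TTCNNNNGAA as TTCACAAGAA, 136 to 145 bases before the start, and the TATA box TATAAA at 25 to 30 bases. The palindrome was present in 5.85% and the TATA box in 12.4% of all 32851 promoter windows of this length. Chil3 and Retnla each held 3 matches to the C/EBP letters TTNNGNAA, which 36.8% of the windows hold. Those of Chil3 lay 20 to 27, 30 to 37 and 46 to 53 bases before the start. Odc1 held no match to these letters or to the E-box CACGTG (6.02% of windows) and the NF-kB letters GGGNNTTTCC (1.41%). In Ass1, whose window is not shown, the E-box lay 31 to 36 bases before the start. A match is a description of the letters and not a binding site.

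The library labelled vector held 14317 cell barcodes with a median of 10277 unique molecular identifiers (UMIs, each a counted RNA molecule), and the SPP1-labelled library held 14029 with a median of 10218. Filters left 13868 and 13579 cells, and 93 barcodes were found in both libraries. The labels could not be checked by Spp1, because the species of the SPP1 sequence is not given in the sources used here and only mouse genes were counted. In the largest class mouse Spp1 was 134 CPM (UMIs of the gene scaled to 1000000 UMIs of the class) under the vector label and 127 CPM under the SPP1 label, and in macrophage/monocyte-like cells it was 2282 and 2628 CPM. The libraries are therefore named by label throughout, and paired values give the vector-labelled library first. Cells were clustered and named from marker lists. Macrophage/monocyte-like cells numbered 789 and 603 (5.69% and 4.44% of kept cells), and 12 of 13 macrophage and monocyte markers reached 10 CPM in them. The largest class held 10245 and 10288 cells (73.9% and 75.8%). It was known from earlier work on these files by Hmga2, Sox9, Tafa1 and Hoxa9, while none of 6 epithelial markers reached 10 CPM and Krt20 was at 0. Of 7 fibroblast markers, 5 and 4 reached 10 CPM in it, and the list summed to 1740 and 1995 CPM. Of 6 pericyte and smooth muscle markers, 3 and 2 reached 10 CPM. This class is called the large compartment here, since the labelled cell type could not be shown by these markers. The low-UMI set (15.1% and 15.1%) and clusters mixing macrophage and compartment markers (2.63% and 2.25%), set apart by thresholds chosen after seeing the data, were left out of these classes.

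Arg1, the ornithine-forming arginase, was measured almost wholly in macrophage/monocyte-like cells. Its level there was 1555 CPM in the vector-labelled library (95% exact Poisson interval 1525 to 1585) and 1650 CPM in the SPP1-labelled library (1615 to 1685). These cells held 88.6% and 84.4% of all Arg1 UMIs, although they were a small class. In the large compartment Arg1 was 2.22 and 2.51 CPM, so that the macrophage level was 699 and 658 times higher (log2 ratio 9.45 and 9.36). All intervals given here cover counting error only, not the spread between animals. Those of levels and ratios leave out the spread between cells too. At an equal depth of 1000 UMIs drawn from each cell (thinned cells), 52.5% and 53.3% of macrophage/monocyte-like cells held an Arg1 UMI. The same share was 0.225% and 0.381% in the compartment, and 77.8%, 85.9%, 2.87% and 3.29% were the shares without thinning, in the same order. T and NK-like cells, a reference for free RNA in the droplets, held an Arg1 UMI in 0.439% and 2.21% of thinned cells (1 and 3 cells). This reference is uneven, since 3 cells of each library held 72.2% and 63.6% of its 18 and 11 Arg1 UMIs. Unthinned, these cells reached 3.42% and 4.83%, although their median depths (3182 and 3726 UMIs) were far below those of the compartment (12351 and 11969). The compartment's Arg1 therefore did not exceed this background, and no expression is read from it. The mixed set held 582 and 758 CPM of Arg1 and the low-UMI set 40.6 and 60.7 CPM. Single macrophage/monocyte-like cells ranged from 0 to 131 and 143 Arg1 UMIs per 10000 UMIs, with medians of 7.29 and 7.58. The top 10% of them held 45.1% and 43.3% of the Arg1 UMIs.

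Nos2, the inducible nitric oxide synthase, was sparse. Macrophage/monocyte-like cells held 139 and 61 Nos2 UMIs, or 20.9 CPM (17.6 to 24.7) and 11.9 CPM (9.08 to 15.2). A Nos2 UMI was found in 9.25% and 5.64% of these cells, and in 1.90% and 0.664% of thinned cells. T and NK-like cells held 0 Nos2 UMIs in both libraries, which allows at most 3.87 and 4.61 CPM by the upper 95% bound. The compartment level was lower, 1.08 and 1.16 CPM, and lay below these bounds. Because the compartment is so large, it still held 49.0% and 63.0% of all Nos2 UMIs, against 44.3% and 23.3% in macrophage/monocyte-like cells. Fibroblast-like cells differed between the libraries, with 0 UMIs in 65 cells and 13 UMIs in 11 of 109 cells (18.6 CPM, 9.92 to 31.9). Endothelial-like cells had 28.2 and 10.2 CPM from 6 and 3 UMIs.

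Slc7a2, the inducible cationic carrier, was high in macrophage/monocyte-like cells and present in a subset of the compartment. The macrophage level was 515 CPM (498 to 533) and 384 CPM (367 to 401), and 29.4% and 22.6% of thinned cells held a UMI. T and NK-like cells were at 6.29 and 8.75 CPM. The compartment level was 39.5 and 32.8 CPM, 3.70 and 3.55 log2 units below the macrophage level. Fibroblast-like cells lay between these classes, at 87.8 CPM (66.2 to 114) and 175 CPM (145 to 209). By sheer number of cells the compartment nevertheless held 59.2% and 64.9% of the Slc7a2 UMIs.

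Ass1, which rebuilds arginine from citrulline, was at a modest level in several classes. Macrophage/monocyte-like cells had 28.3 and 26.9 CPM, the compartment 8.16 and 10.0 CPM, and T and NK-like cells 13.6 and 10.0 CPM. Dendritic cell-like cells had 35.8 CPM (17.9 to 64.0) and 83.1 CPM (46.5 to 137) from 11 and 15 UMIs, and fibroblast-like cells 71.8 and 28.7 CPM. The macrophage level lay above those of the compartment and of T and NK-like cells in both libraries, and those 2 classes overlapped each other. Dendritic cell-like cells overlapped macrophage/monocyte-like cells in the vector-labelled library only, and fibroblast-like cells in the SPP1-labelled library only. Odc1, the first enzyme of polyamine synthesis, was found in every class and was not highest in macrophage/monocyte-like cells. Its level was 168 and 165 CPM in macrophage/monocyte-like cells and 214 and 254 CPM in the compartment. T and NK-like cells had the most, with 356 CPM (319 to 396) and 312 CPM (275 to 354). The remaining named classes ranged from 120.4 to 225 CPM.

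Chil3 and Retnla, the secreted alternative activation markers, lay in few cells, most of them macrophage/monocyte-like. That class held 80.1% and 81.0% of the Chil3 UMIs, and the mixed set a further 12.4% and 13.5%. Chil3 was 44.8 CPM (39.9 to 50.2) and 25.7 CPM (21.5 to 30.5) in that class, with UMIs in 46 of 789 and 30 of 603 cells. The 3 cells with most Chil3 UMIs held 64.1% and 39.4% of them. Retnla was 14.1 CPM (11.4 to 17.3), from 94 UMIs in 10 cells, and 1.75 CPM (0.801 to 3.32), from 9 UMIs in 4 cells. The 3 highest cells held 84.0% and 88.9% of the Retnla UMIs. In the compartment, 10245 and 10288 cells held 23 and 6 Chil3 UMIs and 4 and 0 Retnla UMIs. T and NK-like cells held 2 and 0 Chil3 UMIs and no Retnla UMI.

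**Figure D1:**
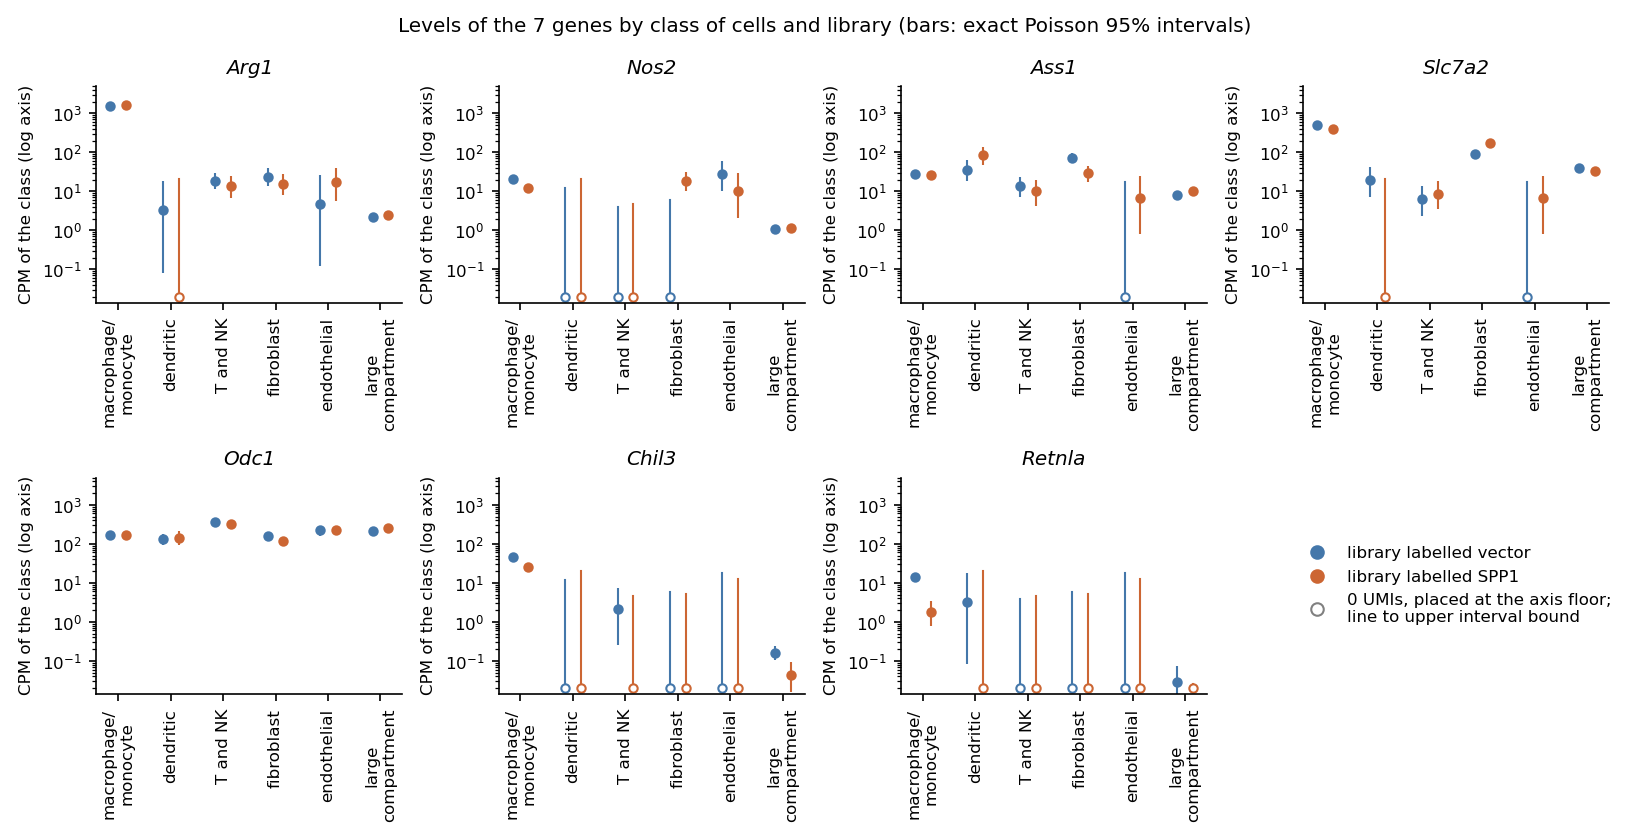
Level of each gene in CPM (log axis) in the 6 named classes of cells, for the vector-labelled library (blue) and the SPP1-labelled library (orange); bars are exact Poisson 95% intervals and open points mark 0 UMIs. Arg1 stands at 1555 and 1650 CPM in macrophage/monocyte-like cells against 2.22 and 2.51 CPM in the large compartment, while Odc1 lies between 120.4 and 356 CPM across the classes.

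In the macrophage/monocyte-like cells, marker lists of other cells were also summed. The 13 macrophage and monocyte markers gave 15188 and 19451 CPM. The 7 neutrophil markers gave 19.2 and 21.4 CPM, with 1 of 7 at or above 10 CPM. The 5 eosinophil markers summed to 1.95 and 1.95 CPM and the 6 mast cell and basophil markers to 2.25 and 1.17 CPM, with none at 10 CPM. The 9 conventional dendritic markers gave 224 and 218 CPM and the 4 plasmacytoid dendritic markers 144 and 203 CPM, with 1 marker of each list at or above 10 CPM. Fibroblast markers gave 66.6 and 76.9 CPM and epithelial markers 42.5 and 29.0 CPM. The part of such cells in the values of the 7 genes was not tested. The 4 marker genes of the compartment summed to 77.9 and 103 CPM in macrophage/monocyte-like cells, against 2444 and 2749 CPM in the compartment itself.

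Within macrophage/monocyte-like cells the arginine genes differed widely between clusters. The cells fell into 10 clusters, formed without the 7 genes and without the pathway lists used below, and are numbered here as M0 to M8 and M10. M0 (142 and 80 cells) was led by Cadm1, F3 and Ptgs2, M1 (113 and 107) by the cycling genes Pclaf, Top2a and Mki67, and M2 (110 and 85) by Hspa1b, Gpnmb and Atp6v0d2. M3 (121 and 55) was led by the monocyte genes Plac8, Ly6c2 and Il1b, and M4 (29 and 121) by Fcrls, F13a1 and Stab1, genes of tissue-resident macrophages. M5 (90 and 36) was led by Cxcl9 and the antigen presentation genes H2-Eb1 and Ciita, and M6 (72 and 43) by Ccl8, Iigp1 and Ms4a7. M7 (45 and 35) was led by Eldr, Trim69 and Cpb2, M8 (50 and 29) by Areg, Il1a, Dcstamp and Inhba, and M10 (17 and 12) by the interferon-induced Rsad2, Cmpk2 and Ifit2.

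Arg1 was present in every cluster and varied 7.15-fold and 4.12-fold between the highest and the lowest. Here and below, clusters are called apart or overlapping by their Poisson intervals only. These leave out the spread between single cells, so the order is a description. M8 was highest in both libraries at this resolution, with 2535 CPM (2397 to 2680) and 3486 CPM (3264 to 3718). In the vector-labelled library M6 followed at 2517 CPM, and its interval overlapped that of M8. M7 (2139) and M0 (2041) overlapped each other, as did M10 (1645) with M2 (1522) and M2 with M3 (1433). M1 at 1153 CPM, M4 at 870 CPM and M5 at 355 CPM each lay apart from their neighbours. In the SPP1-labelled library M0 came next at 3066 CPM, apart from M8 and from the 4 clusters M6, M10, M2 and M7 between 2066 and 1746 CPM. M3, M1 and M5 then overlapped between 1235 and 1080 CPM, and M4 was lowest at 847 CPM (789 to 909). The share of cells with an Arg1 UMI, without thinning, ran from 50% in M5 of the vector-labelled library to 100% in M8 of the SPP1-labelled library.

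Slc7a2 followed part of this order. M8 was highest again, at 1411 CPM (1308 to 1519) and 1182 CPM (1055 to 1321), and M0 was next, at 765 and 682 CPM, where in the SPP1-labelled library its interval overlapped that of M10 (657 CPM). M4 was lowest, at 64.8 CPM (35.4 to 109) and 54.2 CPM (40.2 to 71.4), 21.8-fold below M8 in both libraries. The other clusters lay between 213 and 657 CPM. M4 was thus low in the carrier while still holding Arg1, and 80.7% of its cells came from the SPP1-labelled library.

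Nos2 was highest in the interferon-gene cluster M10, with 93.0 CPM (49.5 to 159) and 126 CPM (70.7 to 208). Its 28 UMIs lay in 13 of 29 cells (44.8%). M8 had 38.5 and 30.3 CPM, and its interval overlapped that of M10 in the vector-labelled library only. M7 had 40.4 CPM from 16 UMIs and 3.33 CPM from 1 UMI. M4 was lowest, with 0 UMIs in 29 cells and 1 UMI in 121 cells. M1, M3 and M5 stayed between 3.21 and 9.20 CPM in both libraries. The level in M10 rests on few cells.

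Ass1 peaked in the monocyte cluster M3, at 63.3 CPM (47.7 to 82.4) and 90.9 CPM (64.6 to 124). There 57 of 176 cells (32.4%) held a UMI, against 2 of 150 cells in M4. Odc1 was low in M6, at 51.6 CPM (33.7 to 75.6) and 42.8 CPM (22.1 to 74.8), and in M7, at 60.5 and 79.8 CPM. M0, M2 and M4 held 204 to 234 CPM in both libraries. The same clusters held 2517 and 2066 CPM (M6) and 2139 and 1746 CPM (M7) of Arg1.

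Chil3 was found in the largest number of cells in M3. That cluster held 77.1 CPM (59.7 to 97.9) and 69.9 CPM (47.2 to 99.8), spread over 33 of 176 cells (18.8%). Outside M3 it was found in 10 cells of M1, 8 of M0, 6 of M2, 6 of M8 and 4 of M6. M8 held 373 CPM in the vector-labelled library, but 2 cells held 99 and 83 of its 184 UMIs. The SPP1-labelled library had 34.1 CPM there, from 9 UMIs in 3 cells. Retnla was found mostly in M6, with 38 UMIs in 4 of 115 cells, and in M2, with 47 UMIs in 3 of 195 cells. In each of them 1 cell held most, with 33 UMIs in M6 and 40 in M2. M0, M1, M3, M5 and M7 held from 1 to 7 Retnla UMIs each. No Retnla UMI was found in M4, M8 or M10, which hold 150, 79 and 29 cells.

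**Figure D2:**
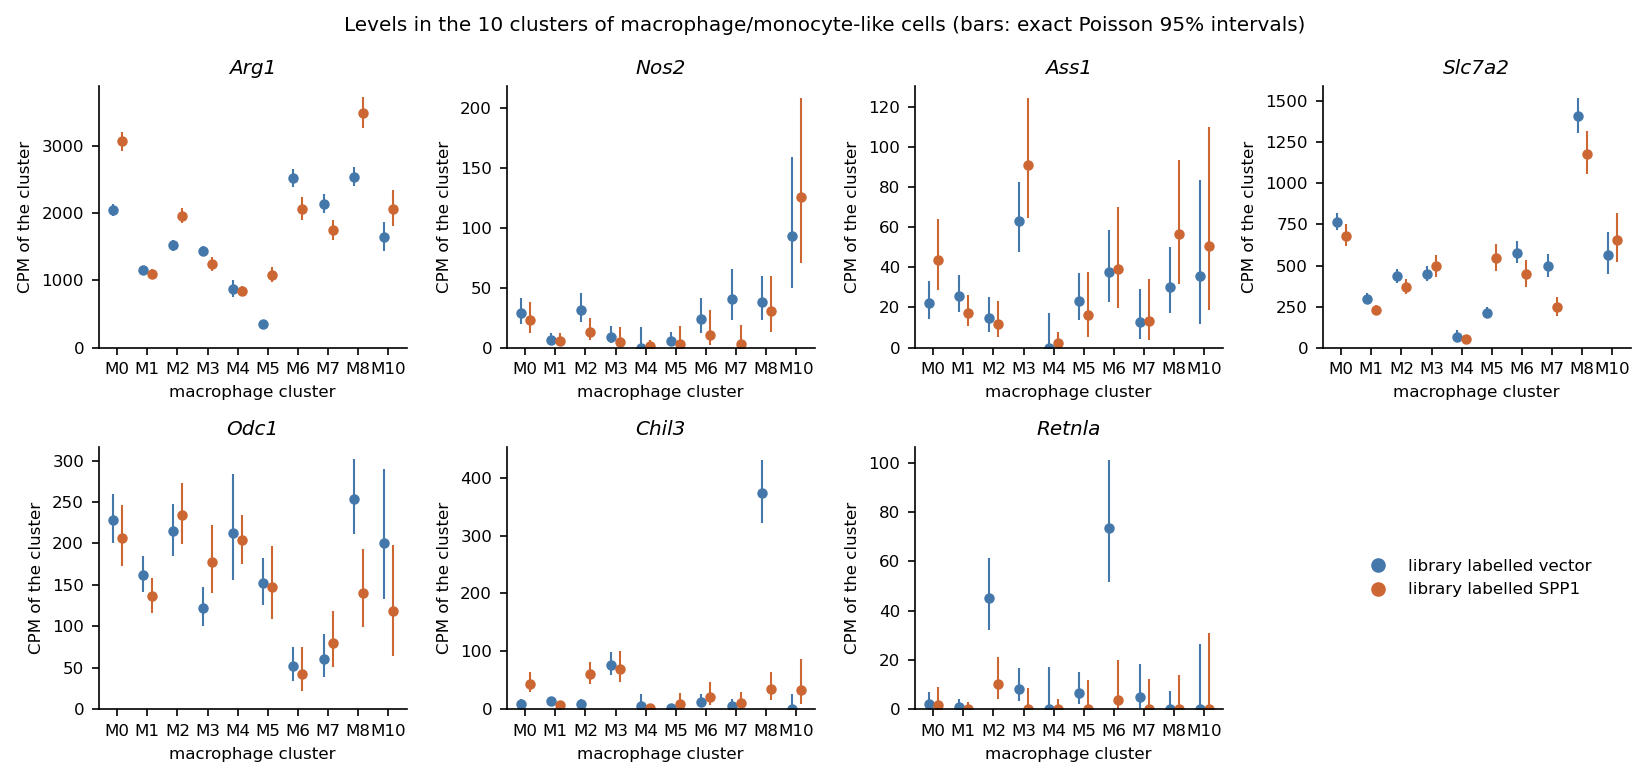
Level of each gene in CPM (linear axes, own range per panel) in the 10 clusters of macrophage/monocyte-like cells, blue for the vector-labelled library and orange for the SPP1-labelled library, with exact Poisson 95% intervals. M8 is highest for Arg1 and Slc7a2 in both libraries, M10 for Nos2 and M3 for Ass1, while M4 holds 64.8 and 54.2 CPM of Slc7a2 and at most 1 Nos2 UMI per library.

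In the large compartment Slc7a2 was concentrated in 1 of 13 clusters. Cluster 8, led by Fbxl7 and Plxdc1 (761 and 544 cells), had 309 CPM (300 to 319) and 311 CPM (300 to 323) of Slc7a2. The other 12 clusters together had 11.6 and 12.3 CPM. An Slc7a2 UMI was found in 82.0% and 79.4% of the cells of cluster 8, against 5.87% and 5.39% of the other compartment cells, and in 22.2% and 20.8% against 0.942% and 1.07% when thinned. The cluster made up 7.43% and 5.29% of compartment cells and held 73.4% and 65.0% of their Slc7a2 UMIs. The gene had been left out when the clusters were formed, and the intervals of the 2 libraries overlapped. Elsewhere the libraries differed, with 20.8 and 55.5 CPM in cluster 10 and 50.1 and 17.6 CPM in cluster 16, which was led by the heat shock gene Hspa1b. Clusters 4 and 14, of which 96.2% and 95.6% of cells came from the SPP1-labelled library, were lowest in that library, with 2.72 and 2.65 CPM.

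Odc1 was present in each compartment cluster and lowest in cluster 5, at 69.9 and 68.1 CPM. The other 12 clusters held 134 to 298 CPM in both libraries. Ass1 was highest in cluster 13, at 13.05 CPM (8.80 to 18.6) and 24.3 CPM (18.6 to 31.1), and cluster 8 followed in the SPP1-labelled library at 20.1 CPM. Nos2 was highest in cluster 10, led by the interferon-induced Ifit1, Ifit3 and Isg15, at 5.65 CPM (4.12 to 7.56) and 5.66 CPM (4.09 to 7.62). The median over the 13 clusters was 0.435 and 0.98 CPM. Cluster 10 lay above the bound of T and NK-like cells in the vector-labelled library and overlapped it in the other. Clusters led by interferon-induced genes were thus highest in Nos2 both here and among macrophage/monocyte-like cells. Arg1 did not exceed 12.6 and 9.01 CPM in any compartment cluster. T and NK-like cells had 18.9 CPM (11.2 to 29.8) and 13.7 CPM (6.86 to 24.6), so these maxima lay below their levels but within their intervals.

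**Figure D3:**
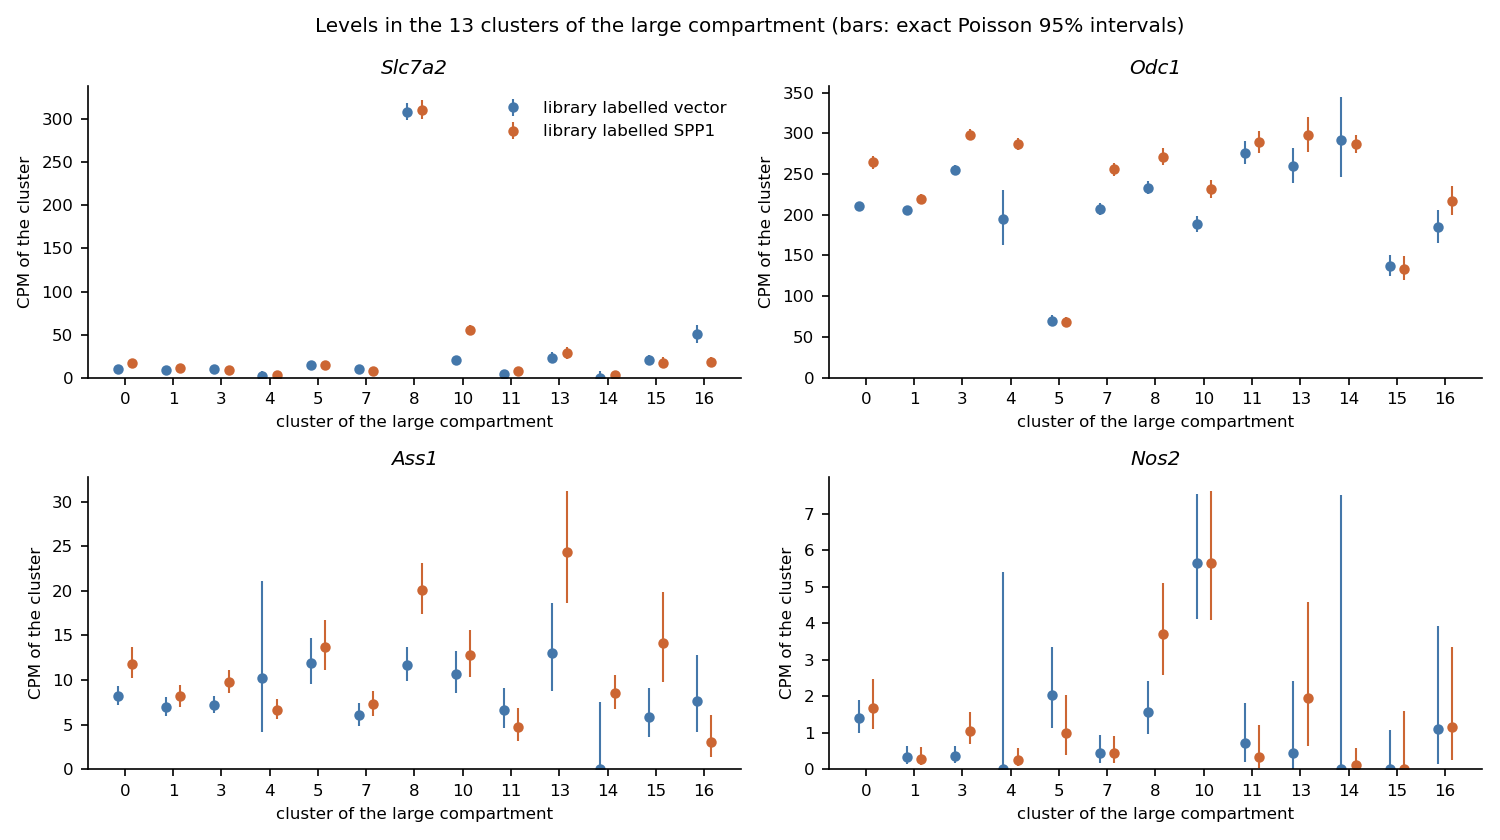
Level in CPM (linear axes) of Slc7a2, Odc1, Ass1 and Nos2 in the 13 clusters of the large compartment, blue for the vector-labelled library and orange for the SPP1-labelled library, with exact Poisson 95% intervals. Slc7a2 stands at 309 and 311 CPM in cluster 8, Odc1 is lowest in cluster 5, and Nos2 is highest in cluster 10.

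Arg1 and Nos2 were not exclusive in single macrophage/monocyte-like cells. Of 73 cells with a Nos2 UMI in the vector-labelled library 71 also held Arg1, as did 33 of 34 in the SPP1-labelled library. Cells with both were 71 of 789 and 33 of 603 in the class, cells with Arg1 alone 68.8% and 80.4%, and cells with neither 21.9% and 13.9%. Only 2 cells (0.253%) and 1 cell (0.166%) held Nos2 without Arg1. Among cells without Nos2, 75.8% and 85.2% held Arg1.

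Depth raises both shares, so cells were also compared after thinning. At 1000 UMIs per cell, 13 of 15 Nos2-positive cells in the vector-labelled library held Arg1 (86.7%, exact binomial interval 59.5 to 98.3), against 51.8% (48.2 to 55.4) of the others. In the SPP1-labelled library it was 3 of 4 cells (19.4 to 99.4) against 53.2% (49.1 to 57.2), and that interval is too wide to tell the shares apart. At 2000 UMIs the shares were 79.3% (60.3 to 92.0) against 61.3% (57.7 to 64.8), and 85.7% (57.2 to 98.2) against 68.4% (64.5 to 72.2). The share was higher beside Nos2 at each depth in both libraries, but the intervals overlapped at 2000 UMIs.

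The amount of Arg1 also differed. Cells with a Nos2 UMI had 2990 CPM of Arg1 (2859 to 3126) in the vector-labelled library, against 1399 CPM (1369 to 1429) in cells without. In the SPP1-labelled library the levels were 2857 CPM (2680 to 3042) and 1564 CPM (1529 to 1600). Median depths were 8617 and 8239 UMIs in the vector-labelled library, and 10101.5 and 7775 in the SPP1-labelled library. The carrier Slc7a2 was also higher beside Nos2, at 870 against 476 CPM and at 880 against 349 CPM. Ass1 was 49.1 against 26.0 CPM and 93.6 against 22.1 CPM. Cells with at least 3 Nos2 UMIs numbered 13 and 7. Of these, 12 and 7 held Arg1, with a median of 34 (0 to 111) and 32 (5 to 47) Arg1 UMIs. The cell with most Nos2 (10 UMIs, in M7) held 85 Arg1 UMIs.

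Within single clusters few cells carried Nos2. In 7 of the 10 clusters every cell with Nos2 held Arg1, and in M6 it was 8 of 9 and in M4 0 of 1 cell. M0 and M2 had most such cells. In M0, 21 of 22 cells with Nos2 held Arg1, against 88.5% of 200 cells without, and in M2 25 of 25 against 88.8% of 170 (not thinned, both libraries joined). Those intervals overlap in M0 (77.2 to 99.9 against 83.2 to 92.6) and in M2 (86.3 to 100 against 83.1 to 93.1). Slc7a2 also went with Arg1 from cell to cell. Of thinned cells with Arg1, 39.1% (34.4 to 44.0) and 34.9% (29.7 to 40.4) held Slc7a2, against 18.7% (14.9 to 23.0) and 8.54% (5.55 to 12.4) of cells without. Of cells with Retnla, 1 of 10 and 1 of 4 held Chil3, against 5.78% and 4.84% of cells without. These few cells do not tell the shares apart, since the interval beside Retnla ran from 1.78% to 42.8% over both libraries. The cell with most Retnla in the SPP1-labelled library (5 UMIs) was also the one with most Chil3 (33 UMIs), and it held 45 Arg1 UMIs.

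**Figure D4:**
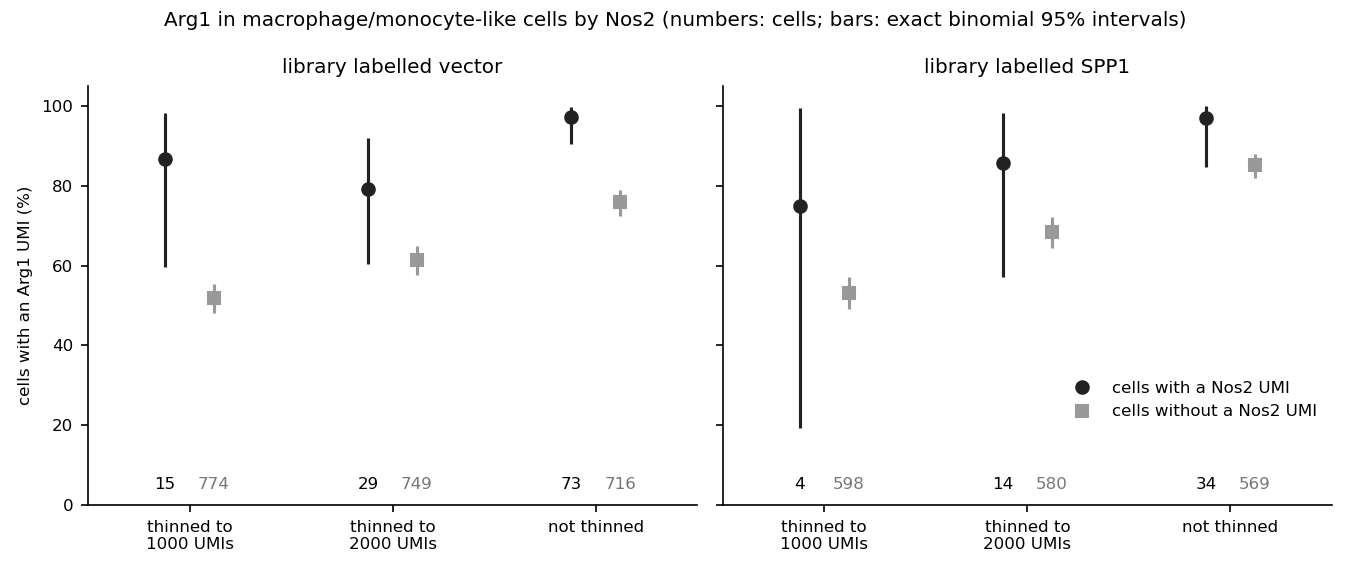
Share (%) of macrophage/monocyte-like cells with an Arg1 UMI among cells with (black) and without (grey) a Nos2 UMI, thinned to 1000 or 2000 UMIs per cell or not thinned, for each library; bars are exact binomial 95% intervals and the numbers are cells. The share beside Nos2 is 86.7%, 79.3% and 97.3% in the vector-labelled library, against 51.8%, 61.3% and 75.8% without Nos2.

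Between the libraries Arg1, Ass1 and Odc1 differed little in macrophage/monocyte-like cells. Slc7a2, Nos2, Chil3 and Retnla were at lower levels in the SPP1-labelled library, with Chil3 and Retnla measured in few cells. A gene with at least 20 UMIs in a class was counted as higher or lower when the exact conditional binomial 95% interval of its ratio excluded 1.5-fold. By that rule 0 of 7 genes were higher and 1, Retnla, was lower in the SPP1-labelled library, where 0.724% of 11871 genes were higher and 0.211% lower. Counting every gene whose interval excluded equal levels, 1 of 7 was higher (background 12.5%) and 4 of 7 were lower (background 12.8%). The background was not matched in level, and genes with more UMIs have narrower intervals, so no excess is read from these counts. The median log2 ratio of the 7 genes was -0.42, against 0.00 for all genes. Such counts compare 2 tumours and not 2 conditions.

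The gene counted as lower, Retnla, went from 94 to 9 UMIs (log2 ratio -3.01, -4.19 to -2.03). Without the 3 highest cells of each library 16 UMIs remained, too few to be counted, at -3.53 (-8.93 to -0.83). Of the 94 UMIs, 40 and 33 lay in 2 cells, and the second of these also held 158 Arg1 UMIs, the most in its library. Chil3 was at -0.80 (-1.11 to -0.50), and at -0.045 (-0.48 to 0.39) without its 3 highest cells, so the difference rested on those cells. Nos2 was at -0.82 (-1.27 to -0.37), and at -0.96 without its 3 highest cells. Slc7a2 was at -0.42 (-0.50 to -0.34). Without M4, the cluster low in Slc7a2 that made up 3.68% of macrophage/monocyte-like cells in the vector-labelled library and 20.1% in the SPP1-labelled library, Slc7a2 was at -0.22 (-0.30 to -0.13). Nos2 was at -0.60 without M4.

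Arg1 was at 0.09 (0.04 to 0.13) and at 0.21 (0.17 to 0.25) without M4. Ass1 was at -0.07 (-0.40 to 0.25) and Odc1 at -0.02 (-0.15 to 0.11). In single clusters the direction was not shared: the interval of Arg1 lay above 0 in 5 of 10 clusters and below 0 in 3. That of Slc7a2 lay above 0 in 1 and below 0 in 4. With at least 20 UMIs in 2 or more clusters, 4 of 7 genes had intervals on both sides of 0, against 11.8% of 7777 genes. With at least 20 UMIs in all 10 clusters it was 3 of 3, against 24.9% of 2312 genes. These backgrounds were not matched in level, and genes with more UMIs have narrower intervals, so no excess is read from the counts. M5, the antigen presentation cluster, differed most for Arg1, with 355 CPM (314 to 399) against 1080 CPM (968 to 1202), a log2 ratio of 1.61 (1.37 to 1.84). Slc7a2 in M5 was 213 and 543 CPM (1.35, 1.03 to 1.67). In that cluster 2 of the 4 genes with at least 20 UMIs were higher and 0 lower past 1.5-fold, where 0.527% of 6077 genes were higher and 0.559% lower. Nothing is read from that count, since M5 was picked for its Arg1 difference. Without the 3 highest cells per library Arg1 in M5 was at 1.12 (0.82 to 1.43), whereas Slc7a2 was at 0.39 (-0.12 to 0.88).

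In the large compartment 0 of 6 genes with at least 20 UMIs were higher past 1.5-fold and 1, Chil3, was lower, where 2.28% of 20007 genes were higher and 0.45% lower. The compartment's Chil3 (0.162 and 0.0422 CPM) lay below the 2.096 CPM of vector-labelled T and NK-like cells, so no expression is read from it. Its ratio was -1.94 (-3.53 to -0.60) from 23 and 6 UMIs, of which 1 cell held 15. Without the 3 highest cells it was -1.002 (-3.63 to 1.23), and with each cell given equal weight its direction turned, to 0.61. By the interval alone 2 genes were higher (background 26.2%) and 2 lower (background 24.2%), again without matching in level. Odc1 was higher, at 0.25 (0.22 to 0.27), and its interval lay above 0 in 9 of 13 clusters and below 0 in none of them. Ass1 was higher, at 0.30 (0.18 to 0.41), with intervals above 0 in 6 of 13 clusters. Slc7a2 was lower, at -0.27 (-0.33 to -0.21), but was 0.026 (-0.03 to 0.08) without clusters 4 and 14. The intervals of Arg1 (0.17, -0.05 to 0.40) and Nos2 (0.10, -0.23 to 0.42) included 0, and Nos2 was at 0.36 (0.04 to 0.69) without those clusters. Retnla had too few UMIs.

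**Figure D5:**
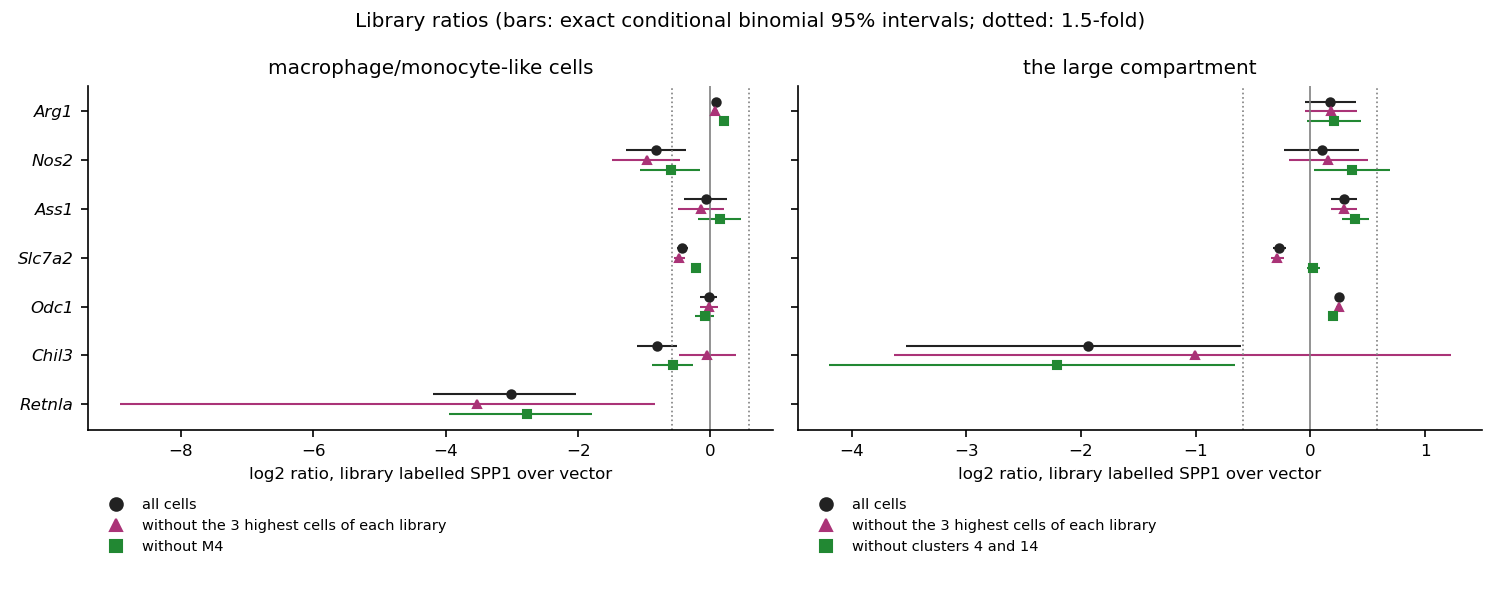
Log2 ratio of CPM, SPP1-labelled library over vector-labelled library, for each gene in macrophage/monocyte-like cells (left) and in the large compartment (right), with exact conditional binomial 95% intervals, for all cells (circles), without the 3 highest cells of each library (triangles) and without clusters mostly from 1 library (squares); dotted lines mark 1.5-fold. Chil3 moves from -0.80 to -0.045 in macrophage/monocyte-like cells without 3 cells, and Slc7a2 moves from -0.27 to 0.026 in the compartment without clusters 4 and 14.

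No gene of the wider arginine pathway was counted past 1.5-fold in either direction in macrophage/monocyte-like cells. Only 0.724% of all genes were higher and 0.211% lower there, so this is not read as a trait of the pathway. With at least 20 UMIs the lists held 5 urea cycle genes, 5 carriers and 6 nitric oxide synthases and cofactor genes. They also held 13 polyamine genes and 5 genes of ornithine, proline and creatine. Their median log2 ratios were 0.09, -0.10, 0.05, 0.11 and -0.04, against 0.00 for all genes. Arg2, the mitochondrial arginase, was 88.8 and 71.4 CPM, and Slc7a1, the housekeeping carrier, 37.6 and 42.4 CPM. Gch1, which makes the cofactor of nitric oxide synthase, was 64.0 and 61.9 CPM. Sat1, which acetylates polyamines, was 742 and 679 CPM, and Gatm, which draws arginine into creatine, was 758 and 691 CPM. Oat, which turns ornithine towards proline, was listed at 0 in both libraries and classes, as was Dohh, which most cells use, so no level is read from either.

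Most genes of the alternative activation list lay below 0. Of its 13 genes with at least 20 UMIs in macrophage/monocyte-like cells, 0 were higher past 1.5-fold and 2 lower, Retnla and Ear2. The background was 0.724% and 0.211%, and Retnla is too sparse to be counted without its 3 highest cells. The median log2 ratio was -0.45, with 1 gene above 0 and 12 below, where 50.1% of all genes lay below 0. Ear2, an eosinophil-type ribonuclease, was 16.5 and 7.20 CPM (-1.20, -1.78 to -0.65). Mrc1, the mannose receptor, was 1014 and 1122 CPM, Mgl2, a galactose-binding lectin, 161 and 119 CPM, and Mmp12, the macrophage elastase, 660.2 and 659.5 CPM. The ligands of the pathway were nearly absent, with 3 Il4 UMIs and 0 Il13 UMIs in these cells. Of 8 genes of interleukin 4 and 13 signalling none passed 1.5-fold (median -0.15), and the receptor gene Il4ra was 53.7 and 64.0 CPM.

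Of 15 genes that induce Nos2 or go with classical activation, 0 were higher and 1 lower, Il12b with 23 and 0 UMIs (median -0.09). The background in macrophage/monocyte-like cells was again 0.724% higher and 0.211% lower. Il1b, the inflammatory cytokine, was 1527 and 1010.0 CPM (-0.60, -0.65 to -0.55), and its interval does not exclude 1.5-fold. Cxcl9, an interferon-gamma target, was 521 and 454 CPM. Of 11 hypoxia genes none passed 1.5-fold (median -0.10). In the compartment the 9 lists held 5, 6, 10, 13, 6, 7, 8, 14 and 11 genes with at least 20 UMIs, in the order given above. Of these 0 were higher and 3 lower past 1.5-fold, where 2.28% and 0.45% of all genes passed. The 3 were Chil3, Mgl2 (0.288 and 0.0984 CPM) and Il1b (2.72 and 1.31 CPM), all far below their macrophage levels, and no expression in the compartment is read from them. All 6 carriers with at least 20 UMIs there had a log2 ratio below 0 (median -0.19), as did 48.1% of all genes. Slc7a1 was among them, with 95.3 and 77.6 CPM. The intervals of Slc7a3 and Slc7a7 included 0, and Slc7a2 was at 0.026 without the compartment clusters mostly from 1 library. All 10 nitric oxide synthase and cofactor genes were above 0 (median 0.12, against 0.01 for all genes), as were 51.9% of all genes. The intervals of Nos1, Nos2, Gch1, Pts and Ddah1 included 0. No shared shift of either list is read from these directions.

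Across units of cells the 7 genes varied in part together. The units were the macrophage clusters of each library with at least 30 cells, 16 in all, which share 2 libraries and differ in depth, so Pearson's r on log2(CPM + 10) is a description. M10, the cluster highest in Nos2, had too few cells to be a unit, so the highest Nos2 level among the units was 40.4 CPM. That unit, M7 of the vector-labelled library, held 16 Nos2 UMIs in 3 cells, and 1 cell held 10 of them. No unit held more than 31 Nos2 UMIs, so the values of r for Nos2 rest on few cells. M8 of the SPP1-labelled library, highest in Arg1, had 29 cells and was left out too. Among the 16 units, Nos2 went with Slc7a2 (r = 0.71) and with Arg1 (0.67), and Arg1 with Slc7a2 (0.64). Odc1 varied apart from Arg1 (-0.17), Nos2 (0.01) and Slc7a2 (0.03). Among 4914 genes that reached 50 CPM, the pattern most like Arg1 was that of Gpi1 (0.87), a glycolytic enzyme, followed by Adam8 (0.86) and Ccl6 (0.84). For Nos2 it was Anxa4 (0.86), the glycolytic Pgam1 (0.83) and Pirb (0.83), and for Slc7a2 Bst1 (0.81), C3 (0.81) and Pdcd1lg2 (0.80). Ass1 was most like S100a4 (0.85), and Odc1 was most like Clic4 (0.92), Trib1 (0.92) and Tnfaip3 (0.91). Chil3 was most like Mmp19 (0.88) and Retnla most like Erp44 (0.80), but their levels in some units rest on 1 or 2 cells. This is given above for M8, M2 and M6.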

How the data were processed

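The deposited values are whole-number UMI counts per gene and cell barcode, made by the authors with Cell Ranger 2.1.1 and GRCm39, per the submitters' processing notes. Barcodes below 300 genes or 500 UMIs, or above 15% mitochondrial UMIs, were dropped, and predicted doublets (375 and 377) were removed by Scrublet's method, with 2 simulated doublets per cell and an expected rate of 0.06. Leiden clustering (leidenalg 0.10.2, resolution 1.0, 30 components, 2000 variable genes, 20 neighbours) left out the 7 genes and the pathway lists. It was repeated within macrophage/monocyte-like cells on 15 components. A class name needed at least 3 raised markers and 50% of its list, a raised marker standing at 10 CPM or more and 1 log2 unit or more above the other cells. The thresholds for mixed and low-UMI clusters (0.5 each, 0.25 for macrophage clusters) were set after seeing the data. Levels, shares and ratios carry exact Poisson, Clopper-Pearson and conditional binomial 95% intervals (scipy 1.17.1). These cover counting error only, since each group is 1 library from 1 mouse, and no p-value was computed. The intervals of levels and ratios also leave out the spread between cells. Total UMIs were 164247003 and 164599332. For a count of 0 the bound given is the upper end of its exact Poisson 95% interval. The interval rule was run on simulated Poisson totals, the model that the intervals assume. That simulation held no spread between cells, so it cannot show how the intervals hold for genes found in few cells. Genes named from a list were up to 4 of its highest levels and those past 1.5-fold. Oat, Dohh, Il4 and Il13 were added after their values were seen. The members and lists were chosen with earlier results of these data known. Alternatives were other filters, resolutions, depths, weights and sets of cells. Of 100 listed genes, 99 were found.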

Additional observations from a re-analysis of the deposited data

Results flagged for a closer look

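The ratio between the libraries took opposite directions in different macrophage clusters for 4 of the 7 genes, each with an interval that excludes 0, where 11.8% of 7777 genes did so. That background was not matched in level, so no excess is read from the count. The difference between clusters was not tested, since each cluster has 1 value per library. Arg1 had a log2 ratio (SPP1-labelled over vector-labelled) of 1.61 in M5 and -0.29 in M7. Slc7a2 had 1.35 in M5 and -1.01 in M7. Odc1 had 0.54 in M3 and -0.85 in M8. Chil3 had 2.73 in M2 and -3.45 in M8.

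Few cells carried part of these values. Without the 3 highest cells of each library, Arg1 was 1.12 (0.82 to 1.43) in M5 and -0.32 in M7, and Slc7a2 was 0.39 (-0.12 to 0.88) in M5 and -1.10 in M7. Odc1 was 0.22 (-0.32 to 0.74) in M3 and -1.32 in M8. For Chil3, 0 and 1 UMIs were left in M2 and 0 and 0 in M8, so its 2 values rest on those cells.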

How the results depend on the processing

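No paired analysis was possible because each group has 1 library. Of 142 alternative values, 109 stayed within the interval or count of the reported value, 31 moved and 2 reversed. A reversal was counted only where the reported interval excluded 0. Other ratios could change sign without being counted, as Ass1 in macrophage/monocyte-like cells did without M4, from -0.07 to 0.14. Keeping predicted doublets and the stricter cell filter moved none of 19 values each out of these limits. Leaving out shared barcodes or adding the mixed cluster that carried macrophage markers moved none of 7 each. Both reversals were in the large compartment: Chil3 was 0.61 with equal weight per cell, and Slc7a2 was 0.026 without clusters 4 and 14. The causes were not tested. In macrophage/monocyte-like cells, equal weight per cluster gave log2 ratios of 0.20 for Arg1, -0.32 for Nos2, 0.36 for Ass1, -0.11 for Slc7a2 and -0.16 for Odc1. Without M4, an alternative chosen after seeing the data, Arg1 was 0.21 and Slc7a2 -0.22, and without the 3 highest cells Chil3 was -0.045. In the compartment Arg1 was -0.061 with equal weight per cell, and Odc1 was 0.20 without clusters 4 and 14. The count of genes past 1.5-fold became 0 without the 3 highest cells in both classes (an alternative chosen after seeing the data), and in the compartment also 0 at 2-fold and 0 with at least 100 UMIs. The Arg1 share of thinned cells with Nos2, vector-labelled, was 100% of 2 cells when 2 UMIs were required, and no such cell was left in the other library. In cells without Nos2 the share was 34.3% and 35.5% with 2 UMIs required, 61.3% and 68.4% at 2000 UMIs, and 75.8% and 85.2% unthinned. The highest cluster level, over both libraries, was 2289 CPM for Arg1, 40.1 for Nos2, 744 for Slc7a2 and 157 for Chil3 at resolution 0.5, and 322 for Odc1 and 99.1 for Retnla at resolution 1.5. The highest cluster could be other cells: that of Arg1 at resolution 0.5 shared 0 cells with M8, that of Chil3 shared 1 of 79, that of Odc1 8 of 195 cells of M2, and that of Retnla at resolution 1.5 2 of 115 cells of M6. At resolution 1.5 the highest clusters of Arg1, Slc7a2 and Chil3 held 78 of the 79 cells of M8. With the members kept in the clustering the level was 1050.4 CPM for Slc7a2 and 149 for Chil3. Leaving out macrophage clusters of low median depth gave no value, because no cluster was under 0.5 of the class median. Nos2 and Retnla rest on class totals of 139 and 61, and 94 and 9 UMIs.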
